A study of Mus musculus with 9 samples.

Results

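The chemokine receptor genes listed in the deposited table were described across 3 groups of mouse brain libraries. Symbols made of Ccr, Cxcr or Xcr and a number were taken, together with Ccrl2, and this gave 12 of the 1710 listed genes. Values are given for 11 of them: Ccr1, Ccr2, Ccr4, Ccr7, Ccr9, Ccrl2, Cxcr3, Cxcr4, Cxcr5, Cxcr6 and Xcr1. RNA was sequenced in bulk from the infected centre of wild-type tissue labelled "brain ctx", collected 10 days after a stereotaxic injection, with 3 libraries each of the groups PBS (a buffered salt solution), LowDose and HighDose. By its title, the series concerns innate immunity set off by AAV (adeno-associated virus, a gene delivery vehicle), and the amounts behind the dose names were not used here. The age of the mice, and whether the libraries of a group came from separate animals, are unknown here, so every SD, SE and p measures the spread between libraries, which may be technical.

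Chemokine receptors are proteins that cross the cell membrane, couple to G proteins and steer cells along gradients of small secreted proteins, the chemokines. Inflammatory receptors such as Ccr1, Ccr2, Cxcr3 and Cxcr6 are carried mainly by monocytes, activated T cells and natural killer (NK) cells, and homing receptors such as Ccr7, Cxcr4 and Cxcr5 guide cells within lymphoid tissue. Most of these receptors are better known from blood and lymphoid cells than from the cells of the healthy brain.

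The receptor genes are not spread evenly over the genome. In the GENCODE M21 annotation of mm10, 8 of the 11 lie on chromosome 9 (72.7%), against 4.81% of the 1704 listed genes found in that annotation and 5.51% of its 21951 protein-coding genes. Ccr9, Cxcr6, Xcr1, Ccr1 and Ccr2 follow each other in this order between positions 123678439 and 124113557 of chromosome 9. Ccr9 (123678439 to 123784330) and Cxcr6 (123806475 to 123811760) lie on the plus strand and 22.1 kb apart. Xcr1 (123852315 to 123862029) and Ccr1 (123962124 to 123968692) lie on the minus strand, and Ccr2 (124101950 to 124113557) on the plus strand. Cxcr5 (44511787 to 44561877), Ccrl2 (111054486 to 111057519) and Ccr4 (114490316 to 114504916) lie elsewhere on chromosome 9, all on the minus strand. Cxcr4 is on chromosome 1 (128588199 to 128592293), Ccr7 on chromosome 11 (99144196 to 99155077) and Cxcr3 on chromosome X (101731535 to 101734269), also all on the minus strand.

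Promoter windows, from 250 bases before to 50 after a RefSeq start site (GRCm38.p6), were found for 9 of the 11 genes, and not for Ccr7 and Cxcr5. They were searched on both strands for 3 motifs of factors active in inflammation. The interferon-stimulated response element (letters GAAANNGAAA) was in 0 of 9 genes, against 3.99% of all 27025 genes with a window. The gamma-activated site (letters TTCNNNGAA) was in 0 of 9, against 9.55%. The NF-kB consensus was in 1 of 9, against 5.14%, and that gene was Ccrl2, at 1 of its annotated start sites. The 250 bases before this start site, chr9:111057519-111057768 on the minus strand, are printed with the match in capitals, 56 bases before the start.
Ccrl2, upstream of the start site: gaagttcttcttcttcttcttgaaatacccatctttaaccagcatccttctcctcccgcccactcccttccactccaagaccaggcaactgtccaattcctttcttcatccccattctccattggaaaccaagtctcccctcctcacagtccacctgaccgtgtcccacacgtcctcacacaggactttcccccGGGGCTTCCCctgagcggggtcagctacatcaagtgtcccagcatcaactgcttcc
A match is a description of letters only, and binding was not measured.

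Levels are given in CPM, estimated counts per 1e6 of the library total, and changes as log2 values fitted with the quasi-likelihood test of edgeR. Library totals were 18.3 to 21.7 M in PBS, 18.7 to 23.7 M in LowDose and 20.9 to 23.1 M in HighDose (M, 1e6 reads or read pairs), so that 3 counts stand at 0.126 to 0.164 CPM. Every listed gene had mean FPKM values 2-fold or more apart in some pair of groups, and each test therefore repeats part of the choice that put the gene in the table. The listed genes held 3.90, 5.21 and 6.04% of the library total in HighDose replicates 1 to 3, against 1.54 to 1.61% in PBS and 1.34 to 1.38% in LowDose. None of the 8 cortical neuron markers was in the table, so they could not check the tissue label. All 12 striatum markers were listed and fell in HighDose, with summed levels of 370 to 434 CPM in HighDose against 1073 to 1598 CPM in PBS. In LowDose 10 of the 12 fell, at 374 to 907 CPM, but 0 of the 12 passed there under the 3 scalings by listed genes described with the first receptor values, where all 12 had log2 values below 0. The part of this difference in the receptor values was not tested.

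At HighDose the receptor genes stood higher. Summed over the 11 genes, the level was 33.6, 53.9 and 69.2 CPM in HighDose, against 3.43, 2.71 and 3.78 CPM in PBS. For 11 of 11 genes every HighDose library lay above every PBS library, which was so for 86.1% of all listed genes. Of the 8 genes that passed the filter on low counts, 8 rose, and 86.3% of all 1583 tested genes rose, so the count by itself does not set the receptors apart. Their median log2 change was 4.42 (range 2.84 to 6.60), beside a median of 1.90 over all tested genes. Apart from Ccrl2 and Cxcr4, these receptors passed the filter only through their HighDose libraries. Their rise was therefore partly fixed in advance, as for any tested gene that was low in PBS and LowDose. Other scalings, in which the listed genes set the scale (TMM, size factors of DESeq2, or the summed counts of the table), take the typical listed gene as unchanged and bring the median of all tested genes to 0.13 to 0.22. All 8 receptors still passed under them, with smaller log2 changes, from 1.05 for Cxcr4 to 4.84 for Ccr7 under TMM. Size factors gave 1.13 and 4.92 for these genes, and the summed counts 1.13 and 4.92. Of all 1583 tested genes, 571 rose under TMM, 605 under size factors and 607 under the summed counts. In bulk RNA, more cells of a type and more RNA per cell cannot be told apart.

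**Figure D1:**
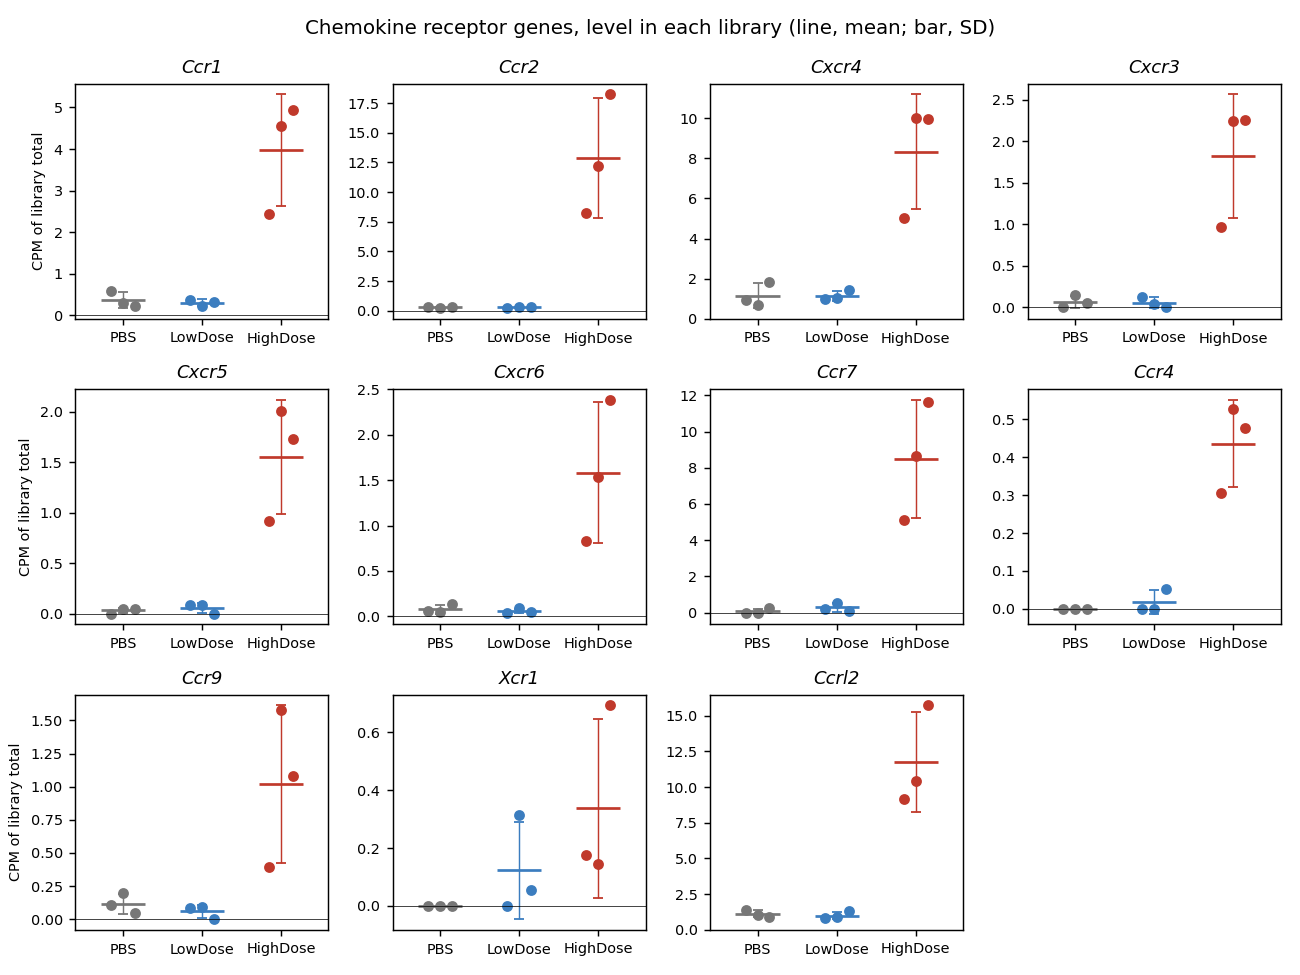
Level of each of the 11 receptor genes in CPM of the library total (linear axis, own scale per gene) in PBS, LowDose and HighDose, with 1 point per library, the mean as a line and the SD as a bar (n = 3 libraries). HighDose points lie above all PBS points in each panel, and LowDose points lie among or near the PBS points, except for Xcr1, where 1 LowDose point lies above 2 HighDose points.

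The inflammatory CC receptors were led by Ccr2, which draws monocytes out of bone marrow and into inflamed tissue. Ccr2 had 8.23, 12.2 and 18.2 CPM in HighDose, against 0.327, 0.242 and 0.277 CPM in PBS. The PBS values rest on 5 or 6 counts per library and are near the floor, whereas the HighDose libraries held 188, 255 and 421 counts. The log2 change was 5.49 ± 0.40 (SE; adjusted p = 1.92e-16), or 3.59 above the median of all tested genes.

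Ccr1, a receptor of monocytes and other myeloid cells, had 2.45, 4.54 and 4.94 CPM in HighDose, against 0.600, 0.291 and 0.231 CPM in PBS. The groups were apart, and the log2 change was 3.42 ± 0.47 (SE; adjusted p = 1.17e-08). The coding sequences of Ccr1 and Ccr2 were 67.7% identical over their aligned bases, with no shared run longer than 15 bases. All pairs of the receptors described here lay between 60.5 and 67.7%, and Ccr1 and Ccr4 shared a run of 17 bases. An estimated count of Ccr2 that was not whole was found in 1 library.

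The makeup of the reported genes also differed between groups. Ccr2 gave 24.5% ± 1.87 of their summed CPM in HighDose, against 8.59% ± 1.14 in PBS (SD, n = 3 each), and Ccr7 gave 16.1% ± 0.800 in HighDose and 2.03% ± 3.52 in PBS. Cxcr4 gave 16.0% ± 2.25 in HighDose, against 33.6% ± 13.2 in PBS, and Ccrl2 gave 23.1% ± 3.96 in HighDose, against 35.0% ± 9.23 in PBS. The libraries overlapped for Ccrl2, with 19.4 to 27.2% in HighDose and 24.4 to 41.3% in PBS. Differences in these shares were not tested. These shares compare counts, and longer transcripts weigh more in them.

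Listed monocyte markers rose and listed microglia markers were mixed, in a comparison where 86.3% of all tested genes rose. Of 9 monocyte markers 3 were in the table and all 3 rose, Ly6c2 (log2 9.30 ± 0.39 SE), Plac8 (6.82 ± 0.38 SE) and S100a4 (1.85 ± 0.47 SE), with a median of 6.82. S100a4 did not pass when the listed genes set the scale (log2 0.07 to 0.16), and without PBS replicate 1 the log2 change of Plac8 was 7.79. Their summed level was 101 to 176 CPM in HighDose, against 0.877 to 1.64 CPM in PBS, and none was at 0 counts over the PBS libraries. Of 10 markers of homeostatic microglia, 4 were in the table, with summed levels of 120 to 132 CPM in HighDose against 85.9 to 109 CPM in PBS. Olfml3 and Tmem119 rose by log2 1.32 and 1.05, and P2ry12 and Gpr34 had log2 changes of -0.97 and -1.07 and fell. When the listed genes set the scale, all 4 fell, Olfml3 and Tmem119 with log2 changes of -0.43 to -0.34 and -0.69 to -0.60. Csf3r, the single listed neutrophil marker of 9, rose by log2 1.56 ± 0.26 (SE), but had -0.22 to -0.13 and did not pass under those scalings. The part of these cell types in the receptor values was not tested.

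Cxcr3 and Cxcr6 guide activated T cells and NK cells into inflamed tissue. Cxcr3, the receptor of Cxcl9, Cxcl10 and Cxcl11, had 0.963, 2.25 and 2.25 CPM in HighDose, against 0, 0.145 and 0.0461 CPM in PBS. These are 22, 47 and 52 counts in HighDose and 0, 3 and 1 in PBS, and the log2 change was 4.67 ± 0.72 (SE; adjusted p = 1.87e-07). Without PBS replicate 2, which held 3 of the PBS counts, it was 5.90. Cxcr6, the receptor of Cxcl16, had 0.831, 1.53 and 2.38 CPM in HighDose, against 0.0545, 0.0484 and 0.138 CPM in PBS. Its counts were 19, 32 and 55 in HighDose and 1, 1 and 3 in PBS, with a log2 change of 4.18 ± 0.67 (SE; adjusted p = 4.37e-07), and of 4.80 without PBS replicate 3. Both receptors were near or under the floor in PBS and above it in each HighDose library. Cxcr6 lies wholly within Fyco1, a gene on the opposite strand, and it is unknown whether counting used the strand, so its counts are uncertain.

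T cell and NK cell markers were higher in the same libraries, in a comparison where 86.3% of all tested genes rose. Of 16 T cell markers 10 were listed and 10 rose (median log2 5.31, or 5.13 with Cd3d, at 0 counts in PBS, at its bound over 3 counts), among them Cd2 (5.56 ± 0.61 SE) and Lck (3.89 ± 0.39 SE). Their summed level was 17.6 to 35.4 CPM in HighDose, against 1.25 to 1.43 CPM in PBS. All 8 NK cell markers were listed and rose (median log2 5.69, or 5.04 with Klre1, at 0 counts in PBS, at its bound), among them Klrk1 (6.76 ± 0.55 SE) and Eomes (2.57 ± 0.56 SE). Their summed level was 15.9 to 28.7 CPM in HighDose, against 0.387 to 0.709 CPM in PBS. When the listed genes set the scale, 7 of the 8 NK cell markers passed, without Eomes (log2 0.78 to 0.86), and under TMM 9 of the 10 T cell markers, without Cd28, named after its values were seen. Without PBS replicate 3 the log2 change of Klrk1 was 6.17. The part of T and NK cells in the receptor values was not tested.

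Among the homing receptors, Ccr7 had the largest log2 change of the 8 tested. Ccr7, which brings mature dendritic cells and naive T cells to lymph nodes, had 5.12, 8.66 and 11.7 CPM in HighDose, against 0, 0 and 0.231 CPM in PBS. The PBS value rests on 5 counts in replicate 3, while HighDose held 117, 181 and 269 counts. The log2 change was 6.60 ± 0.58 (SE; adjusted p = 1.00e-13). Without PBS replicate 3 the remaining PBS libraries stood at 0 counts, and the HighDose level was at least 110-fold higher against 3 counts over the group. This bound holds only without that replicate, and the fitted change with it was 96.8-fold.

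Cxcr5, the receptor of Cxcl13 that leads B cells and follicular helper T cells to follicles, had 0.919, 2.01 and 1.73 CPM in HighDose, against 0, 0.0484 and 0.0461 CPM in PBS. Over the groups these are 103 counts in HighDose and 2 in PBS, a ratio of 46.8 (95% counting interval 12.6 to 391), and the fitted log2 change was 5.33 ± 0.79 (SE; adjusted p = 7.23e-08). Its annotated span overlaps Bcl9l on the opposite strand. Cxcr4, the receptor of Cxcl12, is used by most leukocytes and by developing neurons. It had 5.03, 10.0 and 9.97 CPM in HighDose, against 0.927, 0.678 and 1.84 CPM in PBS, with a log2 change of 2.84 ± 0.37 (SE; adjusted p = 3.09e-09). PBS replicate 3 was well above the other PBS libraries, yet below every HighDose library.

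Of 7 B cell markers all were listed and 5 were tested, of which 4 rose (median log2 3.64), with Cd22 at 3.64 ± 0.55 and Ms4a1 at 5.07 ± 0.78 (SE), while Cd79b had 1.01 ± 0.53 (SE; adjusted p = 0.0680), and -0.80 to -0.71 when the listed genes set the scale. Their summed level was 5.21 to 12.2 CPM in HighDose, against 0.818 to 1.43 CPM in PBS. Over all tested genes 86.3% rose in this comparison. Of 10 dendritic cell markers 4 were listed and 4 rose (median log2 4.01), among them Itgax (4.31 ± 0.38 SE) and Clec9a (3.94 ± 0.70 SE), and 3 of the 4 passed under TMM and DESeq2 size factors. Without PBS replicate 3 the log2 change of Cd22 was 4.24. Their sum was 12.2 to 23.6 CPM in HighDose, against 0.689 to 1.37 CPM in PBS. The part of these cells in the values of Ccr7 and Cxcr5 was not tested.

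Ccr4, Ccr9 and Xcr1 were too low for the filter and are given as counts. Ccr4, a receptor of helper and regulatory T cells, had 7, 11 and 11 counts in HighDose, against 0 in each PBS library, so that its level was at least 8.78-fold higher against 3 counts over the group. Ccr9, which directs T cells to the gut and thymus, had 9, 33 and 25 counts in HighDose, against 2, 4 and 1 in PBS. Its mean level was 1.02 ± 0.595 CPM in HighDose and 0.116 ± 0.0741 CPM in PBS (SD, n = 3 each). Its annotated span overlaps 6 other genes, Lztfl1 and Slc6a20a among them, and reads of those genes may be included. Xcr1, the receptor that marks cross-presenting dendritic cells, had 4, 3 and 16 counts in HighDose, against 0 in each PBS library. Xcr1 was at least 6.96-fold higher over the group, but 16 of its 23 HighDose counts came from replicate 3. With no filter on low counts all 11 receptors rose in this comparison, where 1482 of all 1710 genes rose.

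Ccrl2 is an atypical receptor: it binds the chemoattractant chemerin and presents it to other cells without signalling itself. Ccrl2, whose upstream sequence is printed above, had 9.14, 10.4 and 15.7 CPM in HighDose, against 1.42, 1.07 and 0.922 CPM in PBS. The groups were far apart, with a log2 change of 3.38 ± 0.33 (SE; adjusted p = 2.04e-12). Cmklr1, the signalling receptor of chemerin, rose by log2 2.01 ± 0.28 (SE). Among the chemoattractant receptors outside the family, 4 of a list of 12 were in the table. All 4 rose (median log2 2.74), where 86.3% of all tested genes rose. They include C3ar1 (2.81 ± 0.28 SE) and C5ar1 (2.67 ± 0.42 SE), the receptors of complement fragments, and Fpr2 (3.31 ± 0.73 SE), a formyl peptide receptor. Without PBS replicate 2 the log2 change of Fpr2 was 5.08. When the listed genes set the scale, 2 of these 4 passed, without Cmklr1 (0.24 to 0.33) and Fpr2 (1.59 to 1.68).

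HighDose libraries also differed among themselves. Replicate 1 was the lowest of the 3 for 10 of the 11 receptors, as it was for 76.0% of the 1706 listed genes without ties, and the highest value came from replicate 3 for 7 genes and from replicate 2 for 4. Replicate 1 also had the lowest share of listed genes, 3.90%. Xcr1, lowest in replicate 2, was the exception.

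**Figure D2:**
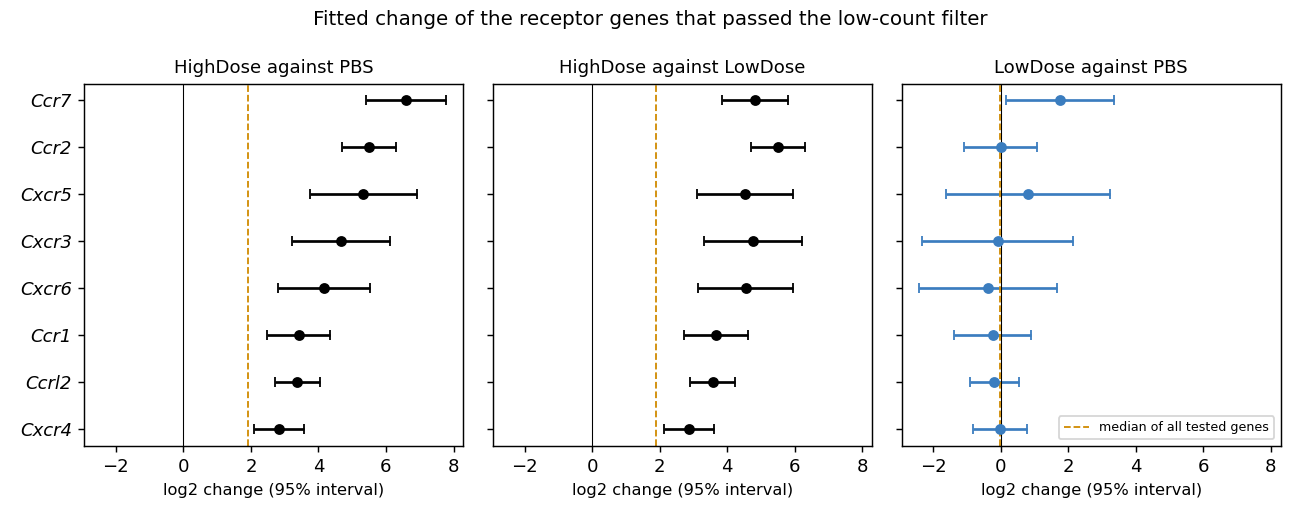
Fitted log2 change and 95% interval of the 8 receptor genes that passed the low-count filter, in HighDose against PBS, HighDose against LowDose and LowDose against PBS, with the median of all tested genes as a dashed line. In the first panel the points lie between 2.84 for Cxcr4 and 6.60 for Ccr7, right of the dashed line at 1.90, while in LowDose against PBS 7 of the 8 intervals include 0.

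At LowDose no receptor passed the test. The summed receptor level was 2.91, 3.64 and 3.63 CPM in LowDose, against 3.43, 2.71 and 3.78 CPM in PBS. Of the 8 receptors tested, 0 rose and 0 fell by edgeR, in a comparison where 0.442% of all tested genes rose and 2.15% fell. At an unadjusted p under 0.05 there was 1 receptor by edgeR, 0 by DESeq2 and 1 by limma-voom, and after adjustment 0 by each of the 3. The median log2 change of the 8 was -0.06, beside -0.03 over all tested genes. No receptor had every LowDose library above every PBS library, which was so for 6.55% of listed genes, or every one below, which was so for 12.7%.

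The receptor with the lowest edgeR p here was Ccr7, with 5, 12 and 2 counts in LowDose, against 0, 0 and 5 in PBS. The groups overlapped, and the log2 change was 1.76 ± 0.79 (SE; 95% interval 0.16 to 3.36; adjusted p = 0.332). The call turned on 1 library: without PBS replicate 3 the adjusted p was 0.00617 (0.00617 to 1 over 19 alternatives), with PBS then at 0 counts, and the LowDose level was at least 3.82-fold higher against 3 counts over the group. This bound too holds only without that replicate, and the fitted change with it was 3.39-fold.

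For the more abundant receptors the intervals limit what LowDose could have changed. Ccr2, near the floor, had 5.07, 7 and 6 counts in LowDose, against 6, 5 and 6 in PBS. Its log2 change was -0.01 ± 0.53 (SE; 95% interval -1.08 to 1.07). Cxcr4 had 0.969, 1.03 and 1.44 CPM in LowDose, against 0.927, 0.678 and 1.84 CPM in PBS. Its log2 change was -0.02 ± 0.39 (SE; 95% interval -0.81 to 0.77). Ccrl2 had 0.801, 0.899 and 1.28 CPM in LowDose, against 1.42, 1.07 and 0.922 CPM in PBS. Its log2 change was -0.20 ± 0.36 (SE; 95% interval -0.92 to 0.53). Ccr1 had a log2 change of -0.24 ± 0.56 (SE; 95% interval -1.38 to 0.89). Cxcr6 had -0.38 ± 1.01, Cxcr3 -0.09 ± 1.11 and Cxcr5 0.80 ± 1.21 (log2 change ± SE). The wide errors of these 3 leave several-fold changes undetectable at this depth. Among the genes that failed the filter, Xcr1 had 0, 7 and 1 counts in LowDose against 0 in PBS, Ccr4 had 1 count over LowDose and 0 over PBS, and Ccr9 had 2, 2 and 0 counts in LowDose against 2, 4 and 1 in PBS. Dendritic cell markers summed to 2.09 to 2.89 CPM in LowDose, against 0.689 to 1.37 CPM in PBS, and NK cell markers to 0.135 to 0.267 CPM in LowDose, against 0.387 to 0.709 CPM in PBS. The sums of the other leukocyte lists overlapped between LowDose and PBS. In both lists 1 gene, named after its values were seen, passed by edgeR: Cd209a rose, with 34 counts over LowDose and 3 over PBS, and Eomes fell, with 1 count over LowDose and 19 over PBS. Both calls were lost under the 3 scalings by listed genes (adjusted p = 0.0986 to 0.152 for Cd209a and 0.0845 to 0.126 for Eomes). By DESeq2 both were lost as well (adjusted p = 0.0900 for Cd209a and 0.0603 for Eomes). By limma-voom both were kept (adjusted p = 0.00539 for Cd209a and 0.0142 for Eomes). Each call was also lost when certain single libraries were left out. The libraries whose removal ended the call of Cd209a were replicates 2 and 3 of PBS, replicate 2 of LowDose and replicate 3 of HighDose, and those that ended the call of Eomes were replicate 3 of PBS and replicates 1 and 2 of LowDose (adjusted p = 0.0560 to 0.139 by edgeR over these). The part of these cells in the Ccr7 and Xcr1 counts was not tested.

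HighDose libraries also stood above LowDose libraries. For 10 of 11 receptors every HighDose library lay above every LowDose library, which was so for 86.7% of listed genes, and Xcr1 overlapped. All 8 receptors tested rose in HighDose against LowDose, where 88.1% of tested genes rose, with a median log2 change of 4.54 beside 1.88 over all tested genes. The limit set by the filter, given for HighDose against PBS, holds for this comparison too. Here Ccr2 came first, with 5.50 ± 0.40 (SE; adjusted p = 1.47e-16), ahead of Ccr7 with 4.83 ± 0.48 (SE), which had 5.64 without LowDose replicate 2, and Cxcr4 had the lowest value, 2.86 ± 0.36 (SE). Cxcr3 had 4.77, and 5.92 without LowDose replicate 1. Under the scalings by listed genes the log2 changes were 0.95 to 1.13 for Cxcr4 and 3.59 to 3.77 for Ccr2. Both comparisons with HighDose share its libraries. Ccr4, with 29 counts over HighDose and 1 over LowDose, had a ratio of 28.1 (95% counting interval 4.65 to 1146).

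Between genes, levels can be set side by side only per transcript length, in the deposited FPKM (counts scaled by transcript length and by depth). In HighDose the order was Ccrl2 with 7.26 ± 2.11, Cxcr4 with 6.32 ± 2.32, Ccr7 with 4.29 ± 1.65 and Ccr2 with 3.71 ± 1.42 FPKM (SD, n = 3). Neighbours among these overlapped. Below them came Ccr1 with 1.40 ± 0.473, Cxcr3 with 1.05 ± 0.427, Cxcr6 with 0.837 ± 0.411 and Cxcr5 with 0.570 ± 0.210 FPKM. Ccr9 had 0.330 ± 0.171, Ccr4 0.177 ± 0.0115 and Xcr1 0.0767 ± 0.0723 FPKM. Libraries of neighbours in this order were apart at just 2 steps, from Ccr2 to Ccr1 and from Ccr4 to Xcr1.

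In PBS libraries Cxcr4 and Ccrl2 stood out by FPKM. Cxcr4 had 0.740, 0.410 and 1.35 FPKM, Ccrl2 had 0.700, 0.530 and 0.760 FPKM, and no other receptor described here exceeded 0.210 FPKM in a PBS library. For Ccrl2, with 3 annotated transcripts, the transcript length implied by its counts and FPKM ran between 1213 and 2290 bases across the libraries, so its FPKM is less comparable between libraries than its CPM.

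**Figure D3:**
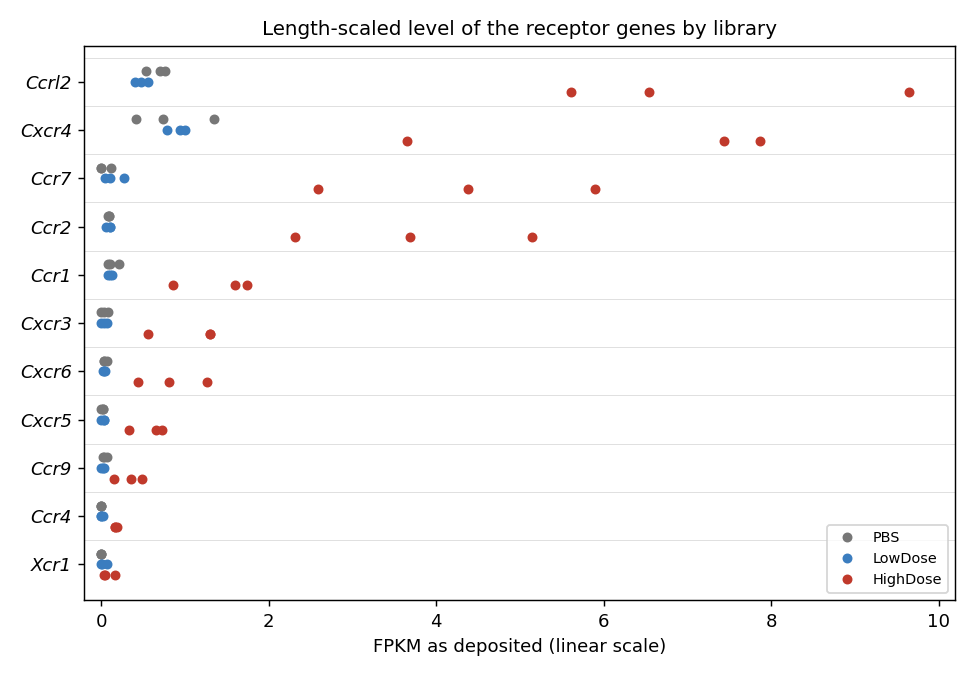
Deposited FPKM of the 11 receptor genes (linear axis) with 1 point per library for PBS, LowDose and HighDose, ordered by the HighDose mean. Ccrl2 and Cxcr4 lead in HighDose with means of 7.26 and 6.32 FPKM, and they are the receptors that stand clear of 0 in PBS and LowDose.

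The listed chemokines taken as ligands of 5 of these receptors also rose. Of a list of 14 ligands of 5 receptors and Ccrl2, 11 were in the table, and 11 rose in HighDose against PBS (median log2 7.77, range 1.85 to 9.28), against 86.3% of all tested genes. Their summed level was 369 to 653 CPM in HighDose, against 4.70 to 5.02 CPM in PBS. For the ligands of Cxcr3, which interferon induces, Cxcl10 had 217, 242 and 410 CPM in HighDose, against 0.164, 0.872 and 0.323 CPM in PBS, a log2 change of 9.28 ± 0.39 (SE; adjusted p = 9.48e-24), and of 10.15 without PBS replicate 2. Cxcl9 averaged 35.8 CPM in HighDose and 0.203 CPM in PBS (log2 7.45 ± 0.37 SE). Cxcl11 had 873 counts over HighDose and 1 over PBS, a ratio of 793 (95% counting interval 142 to 31341).

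Among the ligands of Ccr2, which attract monocytes, Ccl2 had 1324 counts over HighDose and 2 over PBS, a ratio of 601 (95% counting interval 166 to 4968). Ccl12 averaged 26.4 ± 2.89 CPM in HighDose and 0.112 ± 0.0663 CPM in PBS (SD, n = 3 each), and Ccl7, also a ligand of Ccr1, had a log2 change of 8.23 ± 0.48 (SE). Of the ligands of Ccr1, Ccl5 rose by log2 8.45 ± 0.43 and Ccl3 by 3.76 ± 0.58 (SE). The value of Ccl5 was 9.43 without PBS replicate 1 and 7.84 without PBS replicate 3, and all 4 PBS counts of Ccl7 were in PBS replicate 3. Ccl9 rose least of the 11: it had 3.63, 8.85 and 10.1 CPM in HighDose, against 2.13, 2.08 and 2.03 CPM in PBS. Its log2 change was 1.85 ± 0.33 (SE), and it did not pass when the listed genes set the scale (log2 0.04 to 0.13). Cxcl16, the ligand of Cxcr6, had a log2 change of 4.58 ± 0.31 (SE), beside 4.18 ± 0.67 (SE) for its receptor. Ccl19, a ligand of Ccr7, averaged 4.71 CPM in HighDose and 0.502 CPM in PBS. Its log2 change was 3.23 ± 0.42 (SE), beside 6.60 ± 0.58 (SE) for Ccr7. Differences between a ligand and its receptor were not tested. Ccl6, Ccl21a and Rarres2, which encodes chemerin, were not analysed here.

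**Figure D4:**
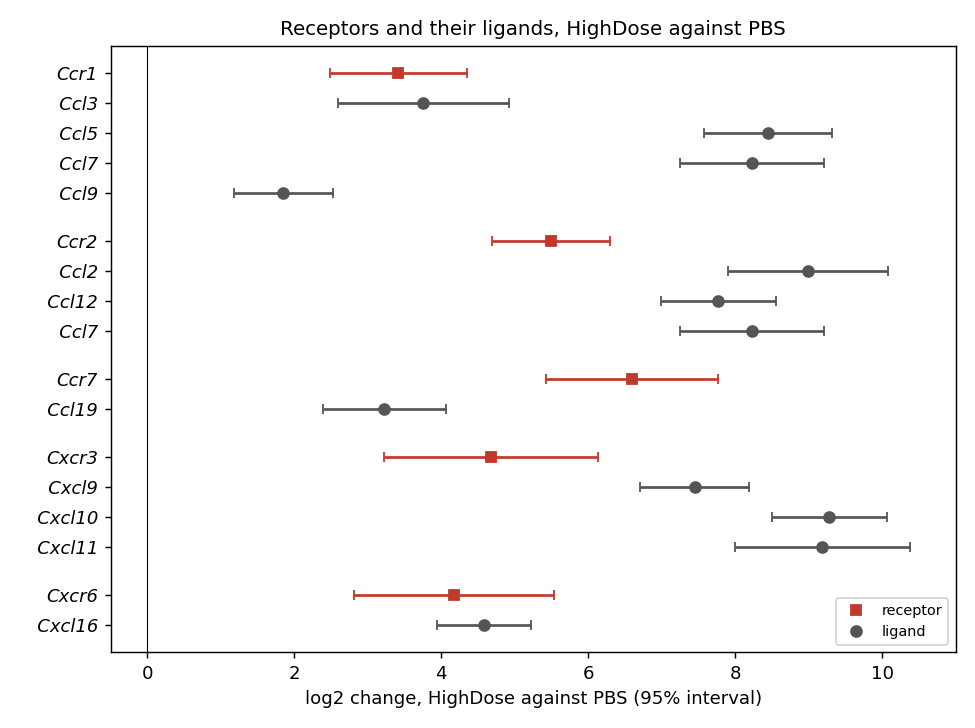
Fitted log2 change in HighDose against PBS, with 95% interval, of 5 receptors (squares) and their listed ligands (circles, Ccl7 drawn under both of its receptors). The ligands of Cxcr3 and Ccr2 lie at 7.45 to 9.28, to the right of their receptors at 4.67 and 5.49, while Ccl19 at 3.23 lies to the left of Ccr7 at 6.60.

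In LowDose against PBS, 0 of the 11 ligands rose or fell by edgeR, DESeq2 or limma-voom, and 2, 2 and 3 had an unadjusted p under 0.05 by these tools. Cxcl16 had 1.53, 1.75 and 2.99 CPM in LowDose, against 0.709, 1.24 and 1.11 CPM in PBS, with a log2 change of 0.997 ± 0.33 (SE; adjusted p = 0.0942). Without LowDose replicate 1 the adjusted p of Cxcl16 was 0.0207 (0.0207 to 1 over 20 alternatives). Without PBS replicate 3, which leaves PBS at 0 counts, that of Ccl7 was 0.0289 (0.0289 to 1 over 19 alternatives). Ccl12 had 0.253, 0.405 and 0.321 CPM in LowDose, against 0.0545, 0.0968 and 0.184 CPM in PBS, a log2 change of 1.45 ± 0.57 (SE; adjusted p = 0.220). For Cxcl16 and Ccl12 every LowDose library lay above every PBS library, as for 6.55% of listed genes. All 11 ligands rose in HighDose against LowDose, where 88.1% of tested genes rose. When the listed genes set the scale 9 or 10 rose, without Ccl9 and, under the summed counts, Ccl19.

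Of 25 other chemokines, among them ligands of other receptors described here, 8 were listed. All 8 rose in HighDose against PBS, where 86.3% of all tested genes rose. The 8 had a median log2 change of 4.81, or 3.93 with Xcl1, at 0 counts in PBS, at its bound over 3 counts. They include Ccl4, which attracts macrophages and T cells (log2 5.90 ± 0.60 SE), and Cxcl13, the ligand of Cxcr5, with 176 counts over HighDose and 1 over PBS (fitted log2 6.88 ± 0.85 SE). The largest p belonged to Ccl8 (2.29 ± 0.59 SE) and Cxcl5 (2.18 ± 0.59 SE), and neither passed when the listed genes set the scale (0.47 to 0.56 and 0.45 to 0.54), which left 6 of the 8. Leaving out PBS replicate 1 gave 7.49 for Ccl4 and 3.14 for Cxcl5, and leaving out PBS replicate 3 gave 5.30 for Ccl4. The single PBS count of Cxcl13 was in PBS replicate 1. Of 28 genes that act downstream of these receptors, 15 were listed, 14 rose and 1 fell in HighDose against PBS, with a median log2 change of 2.02 beside 1.90 over all tested genes. The kinase Fgr (6.32 ± 0.52 SE) and the small GTPase Rac2 (2.61 ± 0.27 SE) had the smallest p, and the enzymes Adcy7 (1.06 ± 0.26 SE) and Plcb2 (0.99 ± 0.30 SE) the largest. When the listed genes set the scale, 4 to 6 of the 15 rose and 4 fell, Adcy7 and Plcb2 with log2 changes of -0.70 to -0.61 and -0.77 to -0.69 among them. The gene that fell with library totals as the scale, named after its values were seen, was Rasgrp2, an exchange factor of Rap proteins, with a log2 change of -1.53, and it also fell in LowDose against PBS (-0.92). That LowDose call was lost under the 3 scalings by listed genes (adjusted p = 0.142 to 0.156) and without PBS replicate 2 or LowDose replicate 2 or 3 (0.0598 to 0.178). It was kept by DESeq2 (adjusted p = 0.0191) and by limma-voom (adjusted p = 0.000156). Fgr is also expressed by the myeloid cells whose markers are given above.

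Genes with the profile most like that of each receptor were sought by the root mean square difference of centred log2(CPM + 0.5) over the 9 libraries, among 1657 listed genes. Cxcr6 was nearest to Lgals8 (0.0885), which encodes a galectin. Ccr1 was nearest to Bcl2a1 (0.105), and Ccr2 to SP140L (0.118), Cd69 (0.139), an early activation marker of lymphocytes, and Klrk1 (0.153), an NK cell receptor. The nearest gene to Ccr7 was Gimap3 (0.190), which acts in lymphocyte survival. The pseudocount sets much of this ranking: with 2 CPM in place of 0.5 CPM, just 8 of the 33 neighbours were the same. Ccr1 and Ccr2 kept 0 of 3, and Cxcr6 kept 2 of 3, but not Lgals8. Gimap3 stayed nearest to Ccr7, and Ccr4, at low counts, kept 3 of 3.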

How the data were processed

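RNA sequencing of 9 libraries (PBS, LowDose and HighDose, 3 each) was analysed. The authors deposited estimated counts for each gene and library, made on build mm10. The deposited FPKM values stand beside them, per the file headers, and scale each count by depth and transcript length. The submitters' processing notes name edgeR and DESeq2 without a role, and which aligner and counter were used is not given in the sources used. Between 7.66% and 14.0% of a library's values were not whole (tolerance 0.001), so counts were rounded.

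Totals of the libraries were worked out from count, FPKM and length of single-transcript genes (23 to 68 per library; FPKM at least 5, count at least 100, length at least 600 bases). They were used as library sizes, because the table holds selected genes. The filter (filterByExpr, minimum count 10) left 1583 genes. edgeR 4.0.16 (quasi-likelihood F-test, R 4.3.3, limma 3.58.1) fitted 1 model of the 3 groups, with Benjamini-Hochberg adjustment over all tested genes and a threshold of 0.05. Genes at 0 counts were compared with a floor of 3 counts. Intervals are 95% and, for ratios of counts, exact, and cover counting error only. SEs are approximate near 0 counts.

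Results for 1 receptor and 3 list genes are not reported here, and these genes stay in the fits but not in the counts, sums and lists. The other receptors and listed ligands were named. From other lists the 2 genes with the smallest and the 2 with the largest p in HighDose against PBS, and per receptor the 3 nearest profiles, could be named. The members and lists were chosen with earlier results of these data known. Alternatives were TMM, DESeq2 1.42.0 size factors, the sum of listed counts as library size, no filter, 1 CPM in 3 libraries as filter, the Wald test of DESeq2, limma-voom, only the groups compared, a replicate block, a 2-fold minimum and leaving out each library. Adjustment over all 55450 annotated genes was added after seeing the data. The fits were tested on simulated counts with most genes unchanged. Changes there were smaller than those of the receptors at HighDose, so such a case was not covered. Sequences came from GENCODE M21 transcripts and RefSeq, read with Python 3.11.15 and Biopython 1.88.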

Additional observations from a re-analysis of the deposited data

How the results depend on the processing

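The 8 receptors tested in HighDose against PBS, and in HighDose against LowDose, rose under library totals, the 3 scalings by listed genes, both other tools, the replicate block, the 2-fold minimum and the adjustment over all annotated genes. The filter sets how many can be counted: 11 passed with no filter and 5 with 1 CPM in 3 libraries (HighDose against LowDose, 10 and 5). Over all genes in HighDose against PBS, 1482 of 1710 rose with no filter and 1226 of 1417 with 1 CPM in 3 libraries. Leaving out 1 library gave 8 to 10 receptors in either comparison with HighDose, and 0 to 1 in LowDose against PBS. Scaling by listed genes moved the median log2 change of all tested genes in HighDose against PBS from 1.90 to 0.13 (TMM) or 0.22 (DESeq2 size factors, listed sum).

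Over all tested genes, TMM gave 571 that rose and 491 that fell in HighDose against PBS, DESeq2 size factors 605 and 455, and the listed sum 607 and 454, beside 1366 and 169. In HighDose against LowDose these were 554 and 491, 576 and 445, and 524 and 524, beside 1394 and 112, with 57 that fell under the 2-fold minimum and 42 with adjustment over all annotated genes. In LowDose against PBS, with 7 that rose and 34 that fell, TMM gave 2 and 0, DESeq2 size factors 3 and 3, limma-voom 17 and 79, and adjustment over all annotated genes 1 and 7. The listed sum gave 2 that fell there, and only the groups compared 11 that rose. Leaving out 1 library gave 5 to 22 that rose, 18 to 57 that fell and 0 to 1 ligands.

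Libraries with the same replicate number had correlations of deviations of -0.02 to 0.18, and those with different numbers -0.19 to 0.15. These ranges overlap, so whether the numbers pair the libraries is unknown here. With a replicate block, 12 genes rose and 50 fell in LowDose against PBS, and 1 ligand, Cxcl16, rose (adjusted p = 0.0442). No receptor call changed under the block.

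Signs reversed among receptors that passed no test in LowDose against PBS. Ccr2 had log2 changes of 0.0230 (TMM), 0.0244 (DESeq2 size factors), 0.199 (listed sum), 0.0546 (limma-voom) and 0.0215 (replicate block). Cxcr4 had 0.000779 (TMM), 0.00539 (DESeq2 size factors), 0.18 (listed sum), 0.0163 (limma-voom) and 0.0390 (replicate block). Cxcr3 had 0.105 (listed sum) and 0.0152 (replicate block), and Ccrl2 0.0119 (listed sum). Leaving out 1 library gave -0.50 to 0.24 for Ccr1, -0.10 to 0.17 for Ccr2, -1.24 to 1.13 for Cxcr3, -0.29 to 0.51 for Cxcr4 and -0.73 to 0.24 for Cxcr6. The cause of these changes was not tested. Of the 33 nearest profiles, 8 were the same with a pseudocount of 2 CPM.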
